A study of Mus musculus with 15 samples.

Results

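The 10 genes described here encode the NF-kB transcription factors of mouse hematopoietic progenitors and the proteins that hold them back. They were chosen by symbol: the subunit genes Nfkb1, Nfkb2, Rela, Rel and Relb, the inhibitor genes Nfkbia, Nfkbib and Nfkbie, the nuclear IkB-like cofactor gene Bcl3, and Tnfaip3, which encodes the ubiquitin-editing enzyme A20. They are 10 of the 55359 genes listed, and all 10 were among the 14548 genes that passed the filter on low counts.

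The cells were progenitors from fetal liver, immortalized with Hoxb8 under estrogen control and grown with β-estradiol. Of the 5 groups of 3 libraries, 4 came from the Ddx41 +/- line (Het) and 1 from the Ddx41 +/+ line (WT). The Het cells carried a retrovirus with wild-type DDX41 (Het DDX41), with the DDX41 substitution G173R (Het G173R), with R525H (Het R525H), or with no insert (Het empty), and the WT cells carried the retrovirus with no insert (WT empty). All 5 groups were infected for 2 days and sorted for GFP. Each genotype is represented by 1 line, so genotype and line cannot be told apart. Whether the 3 libraries of a group are separate cultures is not stated, and the p-values then speak only of spread among these libraries, which may be technical. The deposited names of the 12 Het tables carry other codes than the sample titles, and the groups here follow the titles. Any result between Het groups rests on those titles.

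Deposited totals were 22104066 to 49145873 expected counts per library. Ddx41, the targeted gene, averaged 33.1 ± 3.11 CPM in Het DDX41, 33.3 ± 4.86 in Het G173R, 32.1 ± 2.81 in Het R525H, 30.3 ± 2.34 in Het empty and 59.3 ± 3.94 in WT empty (SD, n = 3 each). The 10 progenitor markers, among them Kit and Cd34, summed to 3447 to 5135 CPM over the 15 libraries. Of the 10 fetal liver parenchyma and stroma markers, 6 were at 0 in every library, Alb, Ttr, Col1a1, Col3a1, Cdh5 and Dlk1. Pdgfrb was at 70.2 to 107 CPM and Pecam1 at 6.60 to 22.0 CPM, and this list summed to 76.9 to 98.2 CPM in the Het libraries, against 110.04 to 126 CPM in WT empty.

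NF-kB proteins bind DNA as dimers. In resting cells most dimers are held in the cytoplasm by IkB proteins or by the unprocessed precursors of the Nfkb1 and Nfkb2 products. IkB kinase marks IkBα for destruction after signals from TNF, IL-1 or Toll-like receptors, and the freed dimers switch on target genes, which include their own inhibitors Nfkbia and Tnfaip3. In the alternative route, NIK and IkB kinase alpha process the Nfkb2 precursor and release RelB dimers. The transcripts measured here report neither where the proteins are nor whether they are active.

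The promoters of the members show where this feedback could be written in the DNA. The kappaB consensus was searched on both strands in the 250 bases before each start in the RefSeq promoter table (GRCm38.p6), which held 8 of the 10 members. It was found for 5 of these 8 genes and in 7 of their 11 promoters. Over all 32851 promoters of the table, 2382 held it (7.251%). Nfkb1 and Relb were not matched in the table. The stretch around the matches of each of these 5 genes is shown 5′ to 3′ on the strand of the gene, with the matching bases in capitals; overlapping matches form 1 run.
Nfkbia: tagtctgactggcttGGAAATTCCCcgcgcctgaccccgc
Nfkbie: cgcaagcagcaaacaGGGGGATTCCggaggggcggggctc
Nfkb2: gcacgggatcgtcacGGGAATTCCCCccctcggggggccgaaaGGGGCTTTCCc
Rel: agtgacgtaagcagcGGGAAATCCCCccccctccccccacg
Tnfaip3: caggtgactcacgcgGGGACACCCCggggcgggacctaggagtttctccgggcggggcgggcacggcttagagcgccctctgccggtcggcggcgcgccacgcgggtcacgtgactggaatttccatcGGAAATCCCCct
The Nfkbia stretch is chr12:55492652-55492691 on the minus strand, and its match begins 29 bases before the start. That of Nfkbie is chr17:45555579-45555618 on the plus strand, with the match 106 bases before the start. In Nfkb2 (chr19:46304683-46304736, plus strand) the matches begin 39 and 11 bases before the first of 3 listed starts, and each of the other starts has 1 match of its own, not shown. The Rel match, in chr11:23771036-23771076 on the minus strand, begins 92 bases before the start. In Tnfaip3 (chr10:19015411-19015550, minus strand) the matches begin 125 and 12 bases before the first listed start. The window of its other listed start held no match, nor did those of Nfkbib, Rela and Bcl3. A match describes letters only; binding was not measured.

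The progenitors expressed all 10 genes, at levels that spread widely. Scaled for transcript length (TPM), Nfkb1, which encodes the p105 precursor of p50, averaged 54.9 TPM over the 15 libraries. Nfkbia, encoding IkBα, followed at 49.3 TPM. Next were Nfkb2, encoding the p100 precursor of p52, at 22.0 TPM and Rela, encoding the transactivating subunit p65, at 21.5 TPM, with overlapping ranges (18.4 to 25.5 TPM for Nfkb2 and 19.4 to 26.1 TPM for Rela). Nfkbib, encoding IkBβ, averaged 11.8 TPM and Tnfaip3 9.46 TPM, and these ranges overlapped too. Relb, the partner of p52, averaged 5.51 TPM. Nfkbie, encoding IkBε, averaged 2.59 TPM, and Rel, encoding the lymphoid-rich subunit c-Rel, averaged 2.32 TPM, again with overlapping ranges. Bcl3 was lowest at 1.03 TPM, on 15 to 54 reads per library.

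**Figure D1:**
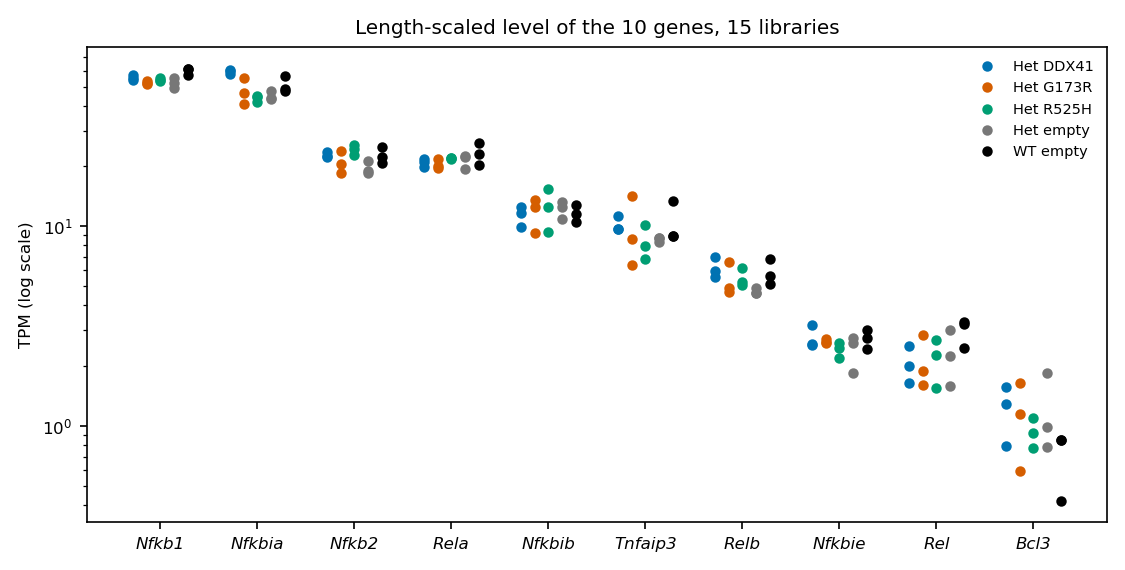
Level in TPM (log axis) of the 10 genes, ordered by their mean over 15 libraries; each point is 1 library, coloured by group. Nfkb1 and Nfkbia lead at 54.9 and 49.3 TPM, and Bcl3 is lowest at 1.03 TPM.

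Among the 5 subunit genes, Nfkb1 made up 49.2 to 53.7% of their summed TPM in every library. Nfkb2 held 18.8 to 23.2% and Rela 19.0 to 23.2%, against 4.31 to 6.35% for Relb and 1.41 to 2.83% for Rel. The subunit transcripts of these cells were thus mainly those of p50, p52 and p65. The mean share of Nfkb2 was 21.2 ± 0.82% in Het DDX41, 20.5 ± 1.49% in Het G173R, 22.4 ± 0.91% in Het R525H, 19.5 ± 0.40% in Het empty and 19.7 ± 1.02% in WT empty (SD, n = 3 each), and these shares were not tested.

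From here on, levels between groups are expected counts relative to TMM-scaled library totals (CPM), which suit comparison of 1 gene across libraries. Fold changes and p-values come from edgeR's quasi-likelihood test over all 14548 genes, and a gene is called at a Benjamini-Hochberg adjusted p under 0.05.

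The clearest difference between groups among the 10 genes was in Nfkbia, the quickly remade inhibitor whose promoter is shown above. It stood at 58.2, 59.7 and 61 CPM in the Het DDX41 libraries, against 42.4, 46.8 and 48.9 CPM in WT empty. In Het G173R it stood at 45.4, 47.4 and 53.0 CPM, in Het R525H at 46.3, 46.1 and 46.4 CPM, and in Het empty at 46.7, 48.2 and 49.5 CPM. All 3 Het DDX41 libraries lay above all 12 others, and they keep that place only as far as the titles, not the codes in the table names, give the groups. Het R525H lay just below Het empty without overlap, and the other pairs among the 4 lower groups overlapped.

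Nfkbia rose in Het DDX41 relative to WT empty, with a log2 fold change of 0.37 (SE 0.07, 95% interval 0.22 to 0.53, edgeR adjusted p = 0.00789). It was the only 1 of the 10 genes called in any of the 10 group comparisons. In that comparison 661 of all genes were called, 4.54%, so 1 call among 10 members says nothing of the members as a group. The call was lost without Het DDX41 library 3 (adjusted p = 0.0679), without WT empty library 1 (0.0568) and with only these groups fitted (0.0574); its log2 fold change ranged from 0.31 to 0.41 over 21 alternative settings.

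Against the other Het groups, the higher Nfkbia in Het DDX41 was of similar size but did not pass adjustment over all genes. Het DDX41 exceeded Het empty by 0.31 on the log2 scale (95% interval 0.15 to 0.46, edgeR adjusted p = 1.0). Het G173R was below Het DDX41, with a log2 fold change of -0.29 (95% interval -0.45 to -0.14, adjusted p = 1.0). Het R525H was below Het DDX41 with a log2 fold change of -0.37 (95% interval -0.52 to -0.21, adjusted p = 0.252). In both of these comparisons of a substitution with Het DDX41, the libraries of equal number deviated together. The edgeR fit with the replicate number as a block gave Nfkbia an adjusted p of 0.251 for Het G173R and 0.0103 for Het R525H. DESeq2 without the block gave 0.00239 for Het R525H against Het DDX41. Neither Het G173R nor Het R525H differed from Het empty in Nfkbia beyond the error, with 95% intervals of -0.14 to 0.17 and -0.21 to 0.10 on the log2 scale.

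**Figure D2:**
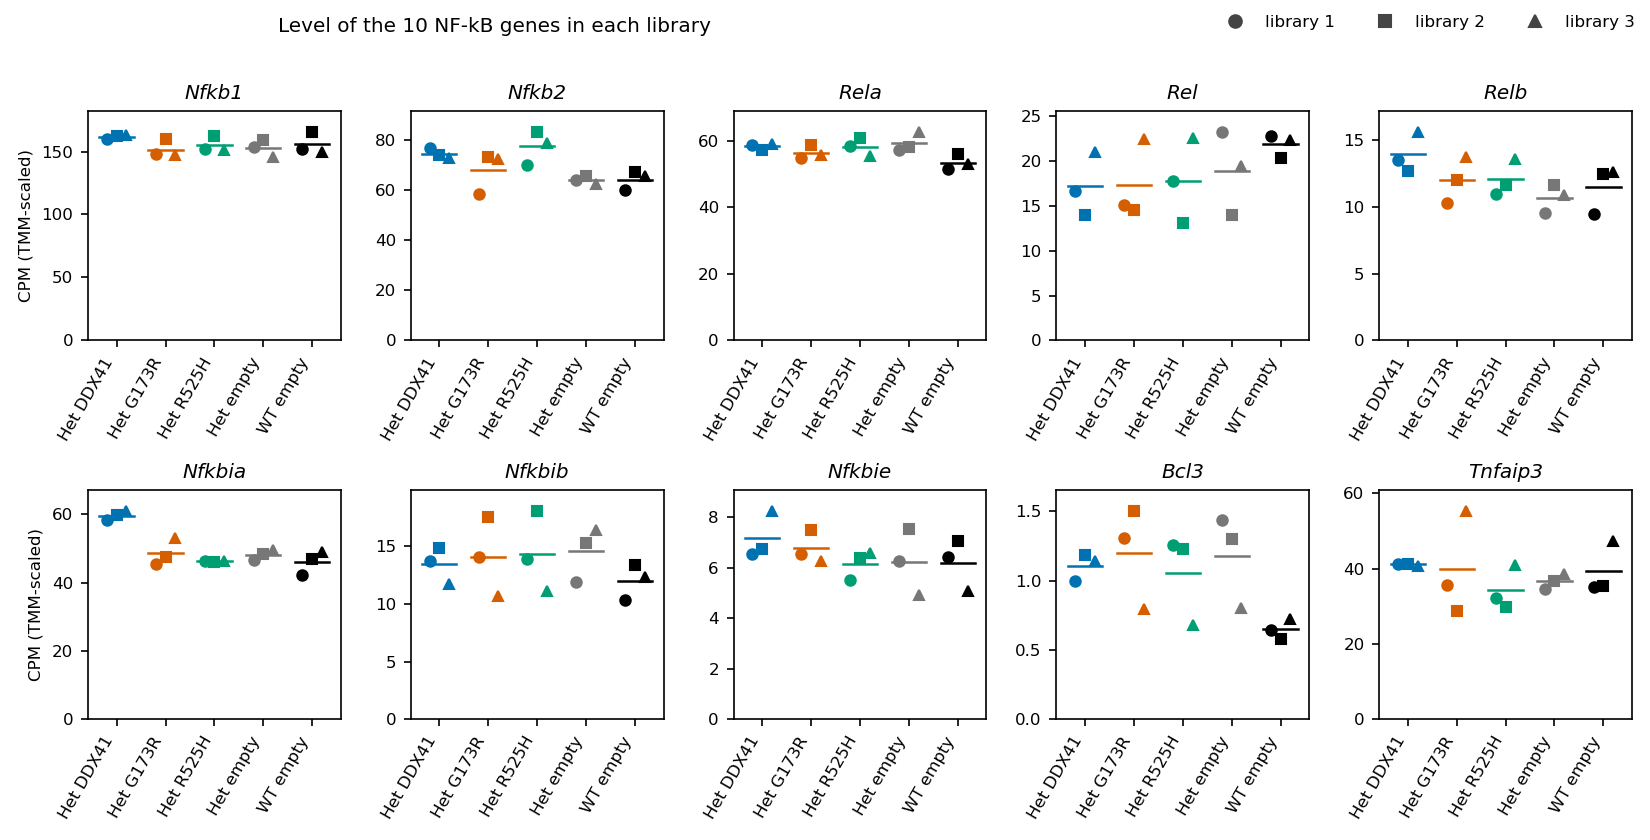
Level in CPM (axes from 0) of each of the 10 genes, by group, with 1 point per library (circle, square and triangle for libraries 1, 2 and 3) and a bar at the group mean of 3. Nfkbia lies at 58.2 to 61 CPM in Het DDX41 and at no more than 53.0 CPM elsewhere, and Bcl3 is lowest in WT empty.

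The remaining inhibitors did not separate the groups. Nfkbib ranged from 10.3 CPM (WT empty library 1) to 18.0 CPM (Het R525H library 2), and Nfkbie from 4.90 to 8.24 CPM. Both varied as much inside a group as between groups: Nfkbib was at 13.9, 18.0 and 11.1 CPM in the Het R525H libraries. No comparison between groups gave a member of this pair an interval that excluded 0.

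Tnfaip3 encodes A20, which removes the ubiquitin chains that carry the signal to IkB kinase. Its level was 41.2, 41.3 and 40.7 CPM in Het DDX41, 35.8, 28.8 and 55.3 in Het G173R, 32.1, 29.8 and 40.8 in Het R525H, 34.5, 36.8 and 38.5 in Het empty, and 35, 35.4 and 47.4 in WT empty. Apart from Het DDX41, where the libraries differed least, library 3 was the highest of each group. The Het DDX41 libraries all lay above those of Het empty, but the log2 fold change of 0.17 had a 95% interval of -0.25 to 0.59.

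Of the subunit genes, Nfkb1 was the steadiest of all 10 members, from 145.6 to 165.5 CPM over the 15 libraries, a ratio of 1.14 between the extremes. Its Het DDX41 libraries (160 to 163 CPM) lay above those of Het empty (145.6 to 159 CPM), yet the 95% intervals against Het empty were -0.05 to 0.22 for Het DDX41, -0.15 to 0.13 for Het G173R and -0.11 to 0.16 for Het R525H, on the log2 scale. Rela was nearly as narrow, from 51.4 to 62.6 CPM.

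Nfkb2, the precursor and partner gene of the alternative route, was at 70.2, 83.2 and 79.0 CPM in Het R525H and at 76.9, 74.1 and 72.7 CPM in Het DDX41. It was at 64.0, 65.6 and 62.4 CPM in Het empty and 60.1, 67.1 and 65.5 CPM in WT empty. Neither of those vector groups overlapped with either empty vector group. Het G173R lay across them, at 58.3, 73.3 and 72.6 CPM. The log2 fold change was 0.28 for Het R525H against Het empty (95% interval 0.08 to 0.47, edgeR adjusted p = 0.700) and 0.22 for Het DDX41 against Het empty (0.02 to 0.42, adjusted p = 1.0). Against WT empty, Het R525H gave 0.27 (adjusted p = 0.107). None of these 3 was called by this test.

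Relb, whose product pairs with p52, was at 13.5, 12.7 and 15.6 CPM in Het DDX41, against 9.53, 11.6 and 10.9 CPM in Het empty. The groups did not overlap, and the log2 fold change of 0.38 (95% interval 0.07 to 0.70) had an edgeR adjusted p of 1.0. In Het G173R it was at 10.3, 12.0 and 13.7 CPM and in Het R525H at 11, 11.6 and 13.6 CPM, overlapping Het empty. WT empty had 9.50, 12.5 and 12.6 CPM.

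Rel was at 16.7, 14 and 21.0 CPM in Het DDX41, 15.1, 14.5 and 22.5 in Het G173R, 17.7, 13.0 and 22.5 in Het R525H, 23.2, 14 and 19.4 in Het empty, and 22.8, 20.3 and 22.4 in WT empty. Library 2 was the lowest of each group, and the spread inside each Het group was larger than the distance between the group means. Its 95% interval for Het empty against WT empty, without the replicate block, was -0.71 to 0.29. With the block its log2 fold change there was -0.23 (SE 0.14, edgeR adjusted p = 0.400), so a sizeable fall may go undetected.

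Over the 10 genes together, Het DDX41 against Het empty had 0 members called and 3 at an unadjusted p under 0.05 (Nfkbia, Nfkb2 and Relb). Their median log2 fold change was 0.13, against -0.006 over all genes tested, and 0 of 14548 genes (0%) were called by edgeR, with 254 at an unadjusted p under 0.05 and 3 called by DESeq2, none a member. Het G173R against Het empty likewise had 0 members called, 0 at an unadjusted p under 0.05, and 0% of all genes called by edgeR, with 88 at an unadjusted p under 0.05 and 3 called by DESeq2. In Het R525H against Het empty 2 genes were called (0.0137%), 0 of them members. Nfkb2 alone of the members had an unadjusted p under 0.05, beside 725 of all genes, and DESeq2 called 0 members. These comparisons share the Het empty libraries.

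Between the DDX41 vectors, 0 members were called by edgeR in each of the 3 comparisons. The background was 0% for Het G173R against Het DDX41 (224 genes at an unadjusted p under 0.05, and 4 called by DESeq2) and 0% for Het R525H against Het DDX41 (581 at an unadjusted p under 0.05, and 35 called by DESeq2, of which 1 a member, Nfkbia). With the replicate block these comparisons gave 1 and 59 genes. Het R525H against Het G173R had 12 genes called, 0.0825%, and 141 with the block. Of the members 0 had an unadjusted p under 0.05, beside 930 of all genes. DESeq2 called 0 members, and the largest log2 difference of a member was 0.23 in size.

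**Figure D3:**
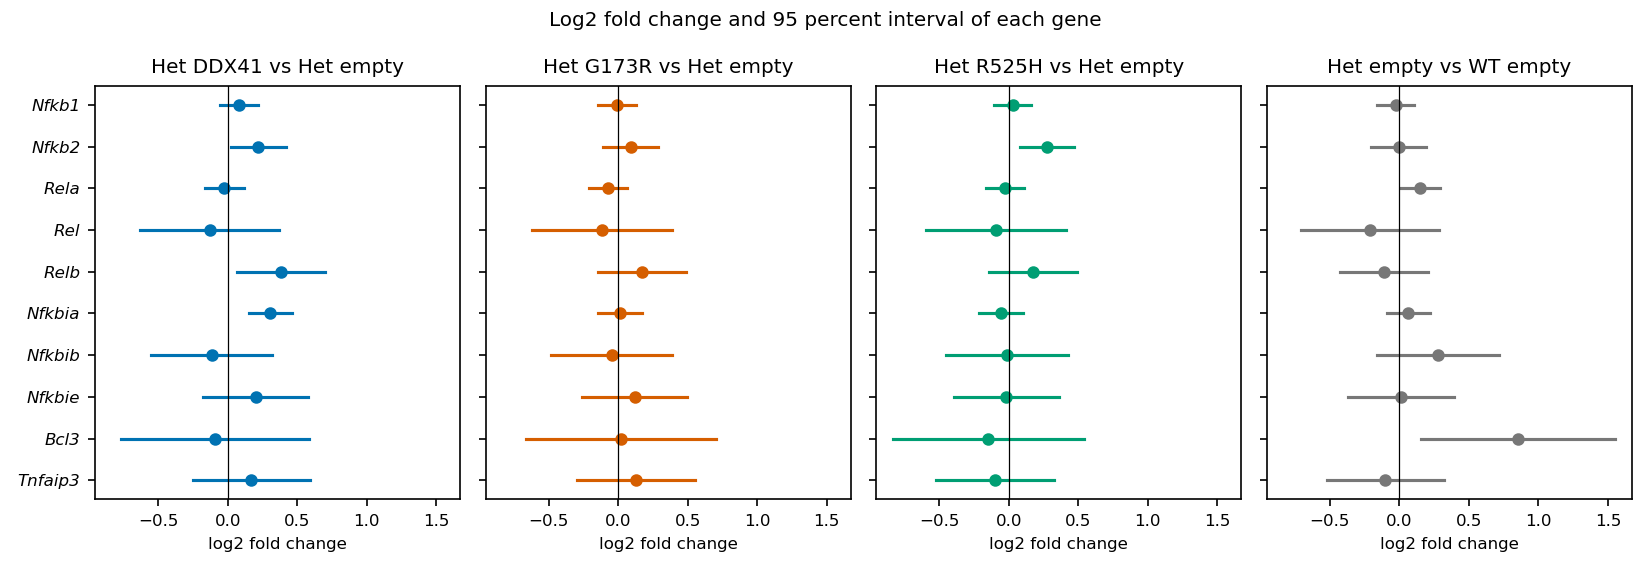
Log2 fold change (points) and 95% interval (lines) of the 10 genes for each DDX41 vector against Het empty and for Het empty against WT empty. In the Het DDX41 panel the intervals of Nfkbia, Nfkb2 and Relb lie above 0, and none of these values passed adjustment over all genes.

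Between the lines, Het empty against WT empty, 0 members were called by edgeR and 0 by DESeq2, while 532 of all genes (3.66%) were called by edgeR and 1352 with the replicate block, which called 0 members. Members with an unadjusted p under 0.05 were Bcl3 and Rela, beside 1692 of all 14548 genes. Bcl3, whose product joins p50 or p52 dimers in the nucleus, was at 1.44, 1.3 and 0.806 CPM in Het empty, against 0.647, 0.582 and 0.727 CPM in WT empty. The log2 fold change was 0.85 (95% interval 0.15 to 1.55, adjusted p = 0.255). Bcl3 was also above every WT empty library in Het DDX41 (1.0, 1.18 and 1.14 CPM) and Het G173R (1.31, 1.5 and 0.795 CPM), while Het R525H (1.25, 1.23 and 0.681 CPM) overlapped. Rela was at 57.3, 58.1 and 62.6 CPM in Het empty, against 51.4, 56.1 and 52.9 CPM in WT empty, a log2 fold change of 0.15 (95% interval 0.01 to 0.29, adjusted p = 0.353).

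Het G173R against WT empty had 0 members called (edgeR and DESeq2), and 551 genes called in all, 3.79%. Of the members 1 was at an unadjusted p under 0.05 (Bcl3), beside 1853 of all 14548 genes. In libraries 1 and 2 alone Bcl3 was called there, at an adjusted p of 0.0485. Het R525H against WT empty had 0 members called (edgeR and DESeq2), and 972 genes called, 6.68%. Members at an unadjusted p under 0.05 were 2 (Nfkb2 and Bcl3), beside 2736 of all 14548 genes. With the replicate block, in this comparison not taken as paired, Nfkb2 was called, at an edgeR adjusted p of 0.0193. All 4 comparisons against WT empty share those 3 libraries.

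Markers of other cell types moved with the line. The 10 neutrophil markers summed to 27.6 to 71.0 CPM in the Het libraries, against 143 to 234 CPM in WT empty, with Mmp8 alone at up to 224 CPM. Of the 9 tested in Het empty against WT empty, 2 rose and 1 fell, and the median log2 fold change was 1.35. Ly6g stayed at or below 0.10 CPM everywhere. The 9 monocyte and macrophage markers summed to 268 to 328 CPM in the Het libraries, against 469 to 575 CPM in WT empty, with C1qa at 0. Most of that sum was Adgre1 and Ccr2, and of 8 tested in Het empty against WT empty 3 rose and 3 fell, with a median of 0.16. The 9 mast cell and basophil markers summed to 166 to 207 CPM, against 211 to 293 CPM, with Fcer1a and Tpsb2 at 0. Of these, 7 were tested in Het empty against WT empty, and 0 rose and 4 fell, with a median of -1.55. Lymphoid and erythroid sums were also lower in Het. In Het empty against WT empty, 2 of 7 tested lymphoid markers and 1 of 7 erythroid markers fell and 0 rose, beside 3.66% of all genes called. The part of all these lists in the Bcl3, Rela and Nfkbia values against WT empty was not tested. In bulk RNA fewer cells of a type cannot be told apart from less RNA per cell.

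In the wider pathway few genes were called between the lines, and the counts are too small to set apart from the background: in Het empty against WT empty, 0 of 21 kinases and adaptors, 1 of 12 other inhibitors, 2 of 8 receptors and 0 of 26 targets, beside 3.66% of all genes. Of the 12 other inhibitors and deubiquitinases, 0 rose and 1 fell in each comparison with WT empty: Tnip3, which encodes an A20-binding inhibitor. It was at 24.6, 23.2 and 24.7 CPM in Het empty, against 77.5, 70.04 and 73.7 CPM in WT empty, a log2 fold change of -1.61 (SE 0.13, edgeR adjusted p = 3.51e-06). With a DDX41 vector it was at 25.0, 27.8 and 33.8 CPM in Het DDX41, 22.8, 19.0 and 27.8 in Het G173R and 23.3, 21.4 and 23.0 in Het R525H. All 12 Het libraries were below the 3 WT empty libraries, and Tnip3 was called in every alternative setting of the 4 comparisons.

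Of 10 receptor genes, 8 were tested, and in Het empty against WT empty 2 rose and 0 fell. Il1rap, the accessory chain of the IL-1 receptor, was at 6.78, 8.82 and 7.88 CPM in Het empty, against 4.08, 3.71 and 3.37 CPM in WT empty (log2 fold change 1.07, SE 0.14, adjusted p = 0.000258). Relative to WT empty it also rose with each insert, by 0.92 for Het DDX41, 1.02 for Het G173R and 1.06 for Het R525H, and each of these groups lay above WT empty. Tnfrsf1b, encoding TNF receptor type 2, was at 75.5, 72.8 and 61.6 CPM in Het empty, against 52.1, 58.3 and 54.3 CPM in WT empty (0.35, SE 0.08, adjusted p = 0.0295). It also rose in Het G173R (0.37) and Het R525H (0.40) and in Het DDX41, at 66.6, 68.2 and 64.4 CPM, it lay above every WT empty library without being called. The Het empty call was lost without any 1 of WT empty libraries 1 and 3 and Het empty libraries 1 and 2, without the filter, and with only those groups fitted, and the Het G173R call without WT empty library 1 or 3, without Het G173R library 3, and with only those groups fitted. With the replicate block, Il1r1 and Tnfrsf13c were called lower in Het empty as well. The block also called both lower in each DDX41 vector group against WT empty, comparisons not taken as paired.

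None of the 21 tested genes for IkB kinases and their upstream adaptors was called in a group comparison by edgeR, with a median log2 fold change of -0.06 in Het empty against WT empty (all genes -0.001). With the block 1 fell there, Ikbkb, encoding IkB kinase beta. Of 33 NF-kB target genes 26 were tested. In Het empty against WT empty 0 were called (median 0.15), against 2 higher and 4 lower with the block. In Het R525H against WT empty 1 fell, Birc3, an inhibitor of apoptosis: 33.7, 33.6 and 33.9 CPM in Het R525H, against 43.5, 44.1 and 44.6 CPM in WT empty (log2 fold change -0.38, SE 0.08, adjusted p = 0.00846). Between vector groups of the Het line, 0 genes of these 4 lists were called by edgeR without the block. With it, 1 target, the chemokine gene Cxcl10, was called higher in Het R525H than in Het G173R.

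Inside the groups, the libraries numbered 3 differed from those numbered 1 and 2 in much of the transcriptome: 6435 of 14548 genes, 44.2%, were called when the number was tested with the group as the other term. The labels do not say what the number marks. Of the 10 members 3 were called, all higher in libraries 3. The share is below the background of 44.2%, but a list of 10 is too small to set apart from it.

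Tnfaip3 had a lowest, median and highest level of 38.5, 40.8 and 55.3 CPM in the 5 libraries numbered 3, against 28.8, 35.2 and 41.3 CPM in the 10 others. Its log2 fold change was 0.35 (SE 0.09, adjusted p = 0.00454), it was higher in library 3 in 4 of 5 groups, and the call held in 18 of 18 alternatives. Rel had 19.4, 22.4 and 22.5 CPM in libraries 3, against 13.0, 15.9 and 23.2 CPM in the others (0.35, SE 0.12, adjusted p = 0.0256). Relb had 10.9, 13.6 and 15.6 CPM, against 9.50, 11.6 and 13.5 CPM (0.21, SE 0.07, adjusted p = 0.0318). Both were higher in library 3 than in the mean of libraries 1 and 2 in 5 of 5 groups. The Rel call was lost without library 3 of Het DDX41, Het G173R or Het R525H, and the Relb call without library 2 of Het DDX41, library 1 or 3 of Het G173R or library 3 of Het R525H, and with no filter.

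Nfkbia was also higher in library 3 in 5 of 5 groups, with a log2 fold change of 0.09 that edgeR did not call (adjusted p = 0.0755). DESeq2 called it (adjusted p = 0.0410), as did 4 of 18 alternatives in all, with a lowest adjusted p of 0.0278 without Het DDX41 library 3. For the main subunits the difference was small: 0.02 for Nfkb2 (95% interval -0.10 to 0.15), -0.001 for Rela (-0.09 to 0.08) and -0.06 for Nfkb1 (-0.13 to 0.02). Bcl3 had a log2 fold change of -0.40 (-0.83 to 0.02) and was called lower in 1 of 18 alternatives. Nfkbib had -0.20 (-0.46 to 0.06) and was called lower in 2 of 18. Nfkbie had -0.11 (-0.34 to 0.13) and was called in 0 of 18.

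By their median, the target genes moved far more than the subunits. Of 26 tested targets 18 rose and 1 fell in libraries 3, beside 44.2% of all genes called. The 1 that fell, Sod2, was not called without library 3 of Het DDX41 or of Het G173R. The median log2 fold change was 0.55, against -0.006 over all genes. Targets not called included Birc3 (0.04), Il1b (0.22), Icam1 (0.14) and Cflar (-0.02). The list was chosen with earlier results of these data known. Ptgs2, encoding cyclooxygenase 2, had a lowest, median and highest level of 230, 378 and 452 CPM in libraries 3, against 84.7, 135 and 169 CPM in the others (1.44, SE 0.06, adjusted p = 1.67e-09). The chemokine gene Ccl3 had 148, 237 and 351 CPM, against 58.7, 63.9 and 97 CPM (1.79, SE 0.08, adjusted p = 2.61e-09). Ier3, an immediate early gene, had 123.1, 157 and 243 CPM, against 30.5, 45.1 and 71.8 CPM (1.77, SE 0.14, adjusted p = 4.11e-07), and the neutrophil chemokine gene Cxcl2 gave 1.38 (SE 0.10, adjusted p = 2.25e-07). For Ptgs2, Ccl3 and Ier3 the lowest library 3 was above the highest of the others. The number of targets that rose ranged from 16 to 22 over 18 alternatives.

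Of the 12 other inhibitors, 6 rose and 2 fell in libraries 3, beside 44.2% of all genes called. A list of 12 is too small to set apart from that share. Nfkbiz, encoding the nuclear cofactor IkBζ, had 61.8, 77.2 and 89.0 CPM, against 41.9, 51.8 and 53.7 CPM (0.60, SE 0.07, adjusted p = 1.81e-05). Nfkbid, encoding the related IkBNS, went the other way, with 12.7, 14.8 and 17.9 CPM, against 18.3, 19.9 and 23.4 CPM (-0.43, SE 0.08, adjusted p = 0.000759). The deubiquitinase genes Otud7b (0.26) and Otulin (0.17) rose. Among the 21 kinases and adaptors 5 rose and 5 fell, a share near the background of 44.2%, with Ikbkg, the regulatory subunit of IkB kinase (0.31), and Chuk, IkB kinase alpha (0.21), higher, and Traf3, which restrains the alternative route (-0.42), and Ripk1 (-0.29) lower. Of 8 receptors 3 rose, a share below that background: Tnfrsf13c (0.87), Il1r1 (0.58) and, at under 1 CPM, Eda2r (1.41), which was called in 10 of 18 alternatives.

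**Figure D4:**
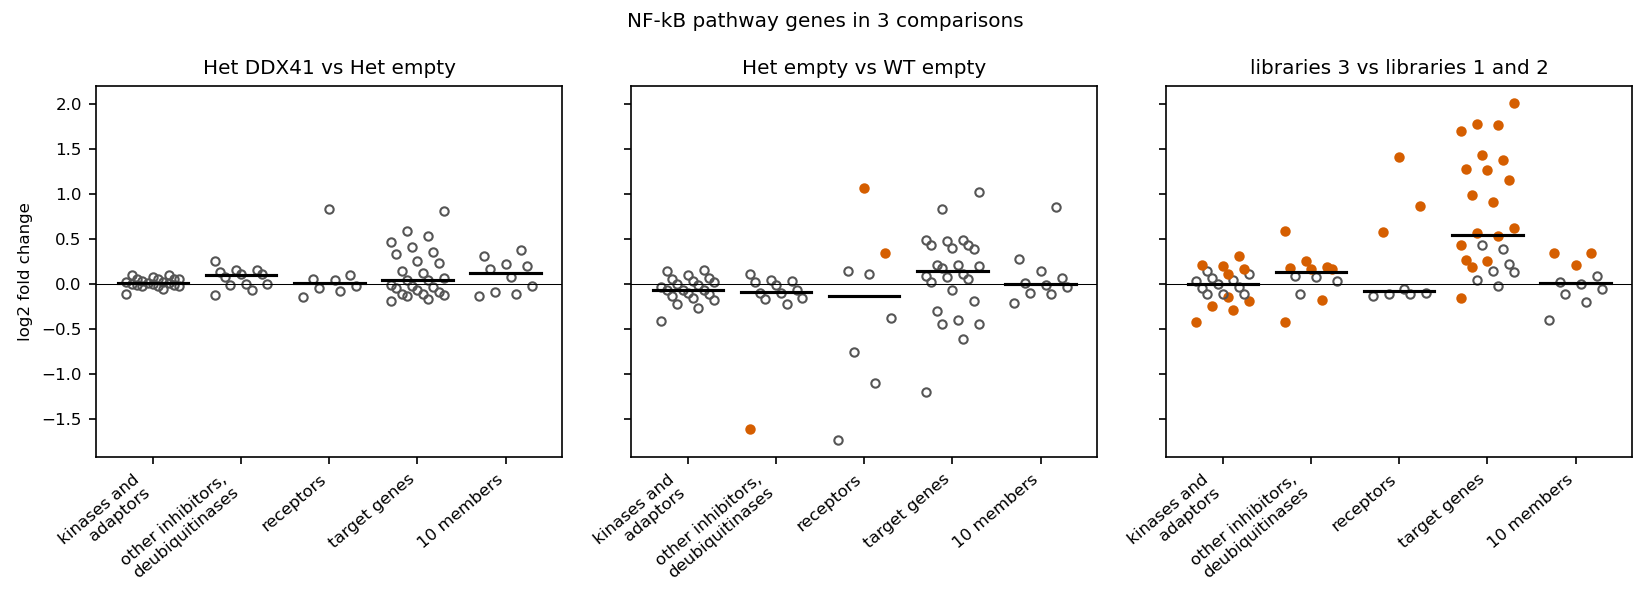
Log2 fold change of each tested gene of 4 NF-kB pathway lists and of the 10 members in 3 comparisons; filled points passed an adjusted p of 0.05, open points did not, and bars are list medians. In libraries 3 the 26 target genes have a median of 0.55, and the 10 members have a median of 0.01, with 3 of them called.

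The progenitor markers summed to 3447 to 3905 CPM in libraries 3, against 4116 to 5135 CPM in libraries 1 and 2, with 2 of 10 higher and 6 lower by the same test. The neutrophil list had 2 of 9 tested higher and 4 lower, and the monocyte list 3 of 8 higher and 2 lower. The mast cell and basophil list had 1 of 7 higher and 3 lower. In the lymphoid list 4 of 7 were higher and 0 lower, and in the erythroid list 3 of 7 higher and 0 lower. Over all genes 44.2% were called in this test, and these lists are too small to set apart from that share. The part of these lists in the target and member values was not tested.

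Across the 15 libraries the strongest relation between members was inverse, Nfkbib with Rel, at a Pearson r of -0.84 in log2 CPM, and Rel with Bcl3 gave -0.63. The highest positive value was that of Nfkbia and Relb (0.73), followed by Nfkbib and Rela (0.70), Nfkbie and Nfkb1 (0.70), and Nfkb2 and Relb (0.65). These values describe libraries that share groups and library numbers. The nearest genes below hold the highest r among 9073 genes with a mean of at least 5 CPM (9074 for Bcl3). The top values of so many over 15 libraries are high by selection, and they were not tested. The 3 nearest to Nfkbia were Ap3m1 (r = 0.94), Mtpn (0.83) and Capns1 (0.80). Those nearest to Tnfaip3 were Zscan2 (0.89), Rtl5 (0.88) and Nfkbiz (0.87). Nfkb2 had Atp6v1c1 (0.88), Fxr1 and Vamp3, and Relb had Saraf (0.91), Eef1a1 and Rps4x. Rel had Rfx7 (0.92), Zfp169 and Peak1, and Nfkbib had Rbfa (0.96), Mrpl28 and Coro1a. Rela had Kdelr2 (0.85), Ccnh and Abracl, and Bcl3 had Plscr3 (0.93) and Rabgap1l. Nfkb1, with D17H6S53E (0.80) and Prkag1, and Nfkbie, with Fundc1 (0.73), Oip5 and Hspa4l, had the weakest nearest genes.

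Some counts are less certain than the rest. In the GENCODE M21 annotation Nfkbib overlaps Sirt2 and Ccer2 on the opposite strand, Nfkb2 overlaps Psd and AC114539.1, and Bcl3 overlaps Gm16174 and Gm16175. Nfkb1 overlaps Gm43430 on the same strand. The library kit was stranded; how strand was counted is not given here. Nfkb2 counts were not whole in 15 of 15 libraries and Nfkbib counts in 3, since reads there were shared between genes.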

How the data were processed

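Total RNA was sequenced from 15 libraries in 5 groups of 3, with groups and replicate numbers from the sample titles and each table assigned to its recorded sample. Per the labels' protocols, libraries were stranded after removal of ribosomal RNA. The authors deposited expected counts and TPM per gene, made with RSEM per the submitters' processing notes; no source used here gives its version, the aligner or the build. FPKM was not used. TPM served only to compare genes. The 10 members and all pathway and marker lists were chosen with earlier results of these data known.

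Rounded expected counts went into edgeR 4.0.16 under R 4.3.3 (filterByExpr, TMM, quasi-likelihood). A model of group alone covered all 15 libraries, with Benjamini-Hochberg adjustment over 14548 genes and calls at 0.05. The libraries numbered 3 were tested by an indicator beside the group. Intervals are the estimate and the t quantile times its standard error. The fit was tested on simulated data.

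Named were all members, up to 4 called genes per list and comparison with the smallest p (others named were chosen after their values were seen), and the 3 nearest genes per member by Pearson r (prior count 2, predicted genes left out; 2 of these genes are not reported here). No libraries agreed within sampling noise (chi-square per gene 4.07 at least). Deviations from group means correlated above 0.1 in all 3 equal-numbered pairs in 5 of 10 comparisons, taken as paired: Het empty against WT empty, Het G173R against Het empty, and the 3 between DDX41 vectors. Alternatives were DESeq2 1.42.0, its size factors, no filter, the replicate block, only the groups compared, libraries 1 and 2 alone, and each library left out.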

Additional observations from a re-analysis of the deposited data

How the results depend on the processing

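No member called in any setting changed direction over the settings run for that comparison. The same held for the pathway genes called by the main edgeR fit. Directions of pathway genes called only in another setting were not followed over the settings. Counts of genes called moved by over 1.5 times as follows. With the replicate block they were 1352 (Het empty against WT empty), 63 (Het R525H against Het empty), 1 (Het G173R against Het DDX41), 59 (Het R525H against Het DDX41), 141 (Het R525H against Het G173R), and 1887, 1453 and 2522 (Het DDX41, Het G173R and Het R525H against WT empty). The block added Nfkbia (1 member) in Het R525H against Het DDX41. In Het R525H against WT empty, a comparison not taken as paired, the block added Nfkb2 (1 member, edgeR adjusted p = 0.0193). Deviations of equal-numbered libraries correlated there at r from 0.02 to 0.37, so that label rests on the threshold chosen. The block changed no other member's call. Of the 26 targets the block called 6 higher and 3 lower, 4 higher and 5 lower, and 6 higher and 4 lower for Het DDX41, Het G173R and Het R525H against WT empty. For Het DDX41 and Het G173R against WT empty it also called Ikbkb lower, and Tnip2 lower beside Tnip3. For Het R525H against WT empty it called Chuk higher and Ikbkg lower. With only the groups compared, the counts of genes called were 0 for Het R525H against Het empty and against Het G173R. Against WT empty they were 396, 278 and 610 for Het DDX41, Het G173R and Het R525H, with 0 members for Het DDX41. Libraries 1 and 2 alone gave 1068 for Het empty against WT empty, 19 for Het R525H against Het empty, 1, 14 and 38 for the comparisons between DDX41 vectors in the order above, and 1307, 1133 and 1904 against WT empty, with 1 member, Bcl3, in Het G173R against WT empty. DESeq2 gave 804 for Het empty against WT empty, 3, 3 and 60 for Het DDX41, Het G173R and Het R525H against Het empty, 4, 35 and 119 between DDX41 vectors, 1053 and 841 for Het DDX41 and Het G173R against WT empty, and 1 member in Het R525H against Het DDX41. Without a filter Het R525H against Het empty gave 5 genes. Leaving out 1 library gave 399 to 781 (Het DDX41 against WT empty), 604 to 1156 (Het R525H against WT empty), 0 to 12 (Het R525H against Het empty), 0 to 2 (Het R525H against Het DDX41) and 0 to 16 genes (Het R525H against Het G173R), and 0 to 1 members in Het DDX41 against WT empty and 1 to 4 in libraries 3, the lowest without Het G173R library 3. The cause was not tested. Bcl3, with 15 to 54 reads per library, limits what can be seen for it: its widest 95% interval spans 0.70 on either side on the log2 scale.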
